A study of Mus musculus with 16 samples.

Results

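The 6 genes described here encode ligands that antigen-presenting cells show to T and NK cells: the PD-1 ligands Cd274 and Pdcd1lg2, the CD28 and CTLA-4 ligands Cd80 and Cd86, the ICOS ligand Icosl, and Pvr, a ligand of TIGIT, CD226 and CD96. They were chosen by name, as 6 of the 24495 genes in the count tables, and each had a row. They were followed in macrophages, mature dendritic cells, monocytes and B cells, which together held 11530 of the 17668 cells of 8 CD45+ libraries.

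The study asked how loss of Aire, a transcription factor that lets the thymus display tissue antigens, alters the immune response to a tumor under PD-1 blockade. Mice on the C57BL/6 background, aged 8 weeks and either *Aire*+/+ or *Aire*-/-, carried MC38, a mouse colon tumor line, and received an isotype control or an anti-PD1 antibody at 5 mg/kg. CD45+ cells, the leukocytes, were sorted at day 19 from tumors and spleens and profiled by single-cell RNA sequencing. Each tumor library pooled the tumors of 4 to 6 mice, each spleen library pooled spleens, and the *Aire*-/- mice lacked Aire in all tissues. Each tissue thus gave 4 conditions with 1 library each and no replicate. Values listed without a condition take *Aire*+/+ mice before *Aire*-/- mice, and isotype before anti-PD1 within a genotype.

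PD-1 is an inhibitory receptor of activated T cells, and its ligands PD-L1 (the product of Cd274) and PD-L2 (the product of Pdcd1lg2) are carried by macrophages, dendritic cells and many tumor cells. Interferon-gamma released by T and NK cells is a well-known inducer of Cd274 in myeloid cells. Dendritic cells that mature in a tumor gain Ccr7, which guides them to lymph nodes, and show costimulatory and inhibitory ligands side by side.

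The filter kept 2930, 2208, 1856 and 2075 tumor cells and 2095, 2088, 2023 and 2393 spleen cells. Tumor libraries held 23282801 to 38930018 UMIs, with medians of 11892, 11858, 12252 and 9889 UMIs per cell, and spleen libraries held 10927395 to 12618100 UMIs. UMIs of Aire numbered 0, 2, 1 and 0 in tumors and 2, 5, 4 and 0 in spleens, counts so low that they cannot check a genotype. Any pair of the 8 libraries shared 3 to 16 cell barcodes, at most 0.791% of the smaller library. Levels are given as CPM, the gene's UMIs summed over the cells of a population and divided by all UMIs of those cells, times 1000000. Intervals are 95% and exact (Poisson for levels, Clopper-Pearson for shares, conditional binomial for ratios). They cover counting error only, not differences between mice or pools. Those of levels and ratios treat each UMI as independent, so they also leave out differences between cells.

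Macrophages were cells with at least 5 UMIs of C1qa, C1qb and C1qc together, mature dendritic cells had at least 2 of Ccr7 and 1 of Fscn1, and B cells had at least 1 of Cd79a. Monocytes had at least 5 UMIs of Lyz2, 1 of Csf1r and 2 of Ly6c2, Chil3, Ace and Ear2 together, with no Flt3 or Cd3 UMI and C1q below the macrophage minimum. Cells that met more than 1 of these gates, 2 to 11 in each library, were left out as possible doublets, and no doublet caller was run. The tumors gave 1219, 814, 585 and 241 macrophages, 41.6, 36.9, 31.5 and 11.6% of cells, and 744, 510, 468 and 356 monocytes. Mature dendritic cells were few, at 49, 35, 44 and 55. Spleens gave 1397, 1453, 1355 and 1733 B cells and 159, 99, 103 and 58 monocytes. Tumor B cells (1 to 7 per library), splenic macrophages (4 to 14) and splenic mature dendritic cells (0 to 4) were under the minimum of 20 cells and have no level. Detection of a marker meant at least 1 UMI over all cells of a population, a low bar that does not settle identity. T cell markers met it in macrophages too. In each population with a level, 7 of 7 lineage markers outside the gate were detected in every library. Their summed levels were 4358 to 8272 CPM in macrophages (Apoe the most abundant), 11514 to 12237 in mature dendritic cells (H2-Aa), 7128 to 7798 in tumor monocytes (Plac8), 5354 to 6574 in splenic monocytes (Plac8) and 5248 to 5475 in splenic B cells (Cd79b).

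Cd274 had its highest level among the 3 myeloid populations of the tumor in mature dendritic cells and its lowest in macrophages, in all 4 libraries, and splenic monocytes were far below tumor monocytes. In mature dendritic cells Cd274 was 707 and 629 CPM in *Aire*+/+ mice (isotype, then anti-PD1) and 699 and 881 CPM in *Aire*-/- mice, with intervals of 635 to 784, 555 to 710.2, 634 to 770.2 and 816 to 951. Tumor monocytes had 191, 223, 268 and 317 CPM (182 to 201, 211 to 235, 255 to 282 and 299 to 335) and macrophages 149, 158, 221 and 277 CPM (143 to 154, 151 to 165, 211 to 230.3 and 258 to 296). No interval of a neighbouring pair among these 3 overlapped within a library. T cells, at 62.6, 70.2, 83.7 and 89.7 CPM, and NK cells, at 54.8, 60.2, 61.2 and 52.7 CPM, followed in that order, and their intervals overlapped in both *Aire*+/+ libraries and not in the *Aire*-/- libraries. Neutrophils had at least 20 cells in the *Aire*+/+ libraries alone, with 576 CPM (445 to 734) for isotype and 909 CPM (727 to 1123) for anti-PD1, overlapping mature dendritic cells in the first and above them in the second.

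The ratio of mature dendritic cells to macrophages for Cd274 was 4.75 (4.24 to 5.30), 3.99 (3.49 to 4.54), 3.17 (2.85 to 3.53) and 3.19 (2.87 to 3.53). For monocytes over macrophages it was 1.29 (1.21 to 1.37), 1.41 (1.32 to 1.52), 1.22 (1.14 to 1.30) and 1.14 (1.05 to 1.25). The log2 ratio of mature dendritic cells over macrophages that a scaling sets to 0 was 0.05, 0.01, -0.04 and 0.04 for TMM factors and -0.12, -0.21, -0.30 and -0.09 for the median gene. For monocytes over macrophages it was -0.19, -0.18, -0.24 and -0.21 for TMM factors and -0.22, -0.19, -0.24 and -0.13 for the median gene. Centring on that median took the log2 ratio of mature dendritic cells over macrophages from 2.25, 1.997, 1.67 and 1.67 to 2.37, 2.21, 1.96 and 1.77, and that of monocytes from 0.36, 0.50, 0.28 and 0.19 to 0.58, 0.69, 0.52 and 0.32. The order of the 3 populations was the same on the reported and the median-centred scale. Splenic monocytes held 20.7, 25.1, 20.8 and 19.6 CPM of Cd274 (13.8 to 29.7, 15.3 to 38.7, 12.1 to 33.3 and 8.46 to 38.6), which is 0.108 (0.0721 to 0.156), 0.112 (0.0685 to 0.174), 0.0776 (0.0451 to 0.125) and 0.0619 (0.0267 to 0.122) of the tumor monocyte level. Spleen and tumor cells were prepared as separate libraries with different depths, so tissue and library cannot be told apart.

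Between conditions, Cd274 in tumor macrophages was higher in *Aire*-/- than in *Aire*+/+ mice under both antibodies. It was 149 and 158 CPM in *Aire*+/+ mice (isotype, then anti-PD1) and 221 and 277 CPM in *Aire*-/- mice, and the *Aire*-/- libraries were the highest pair. The *Aire*-/- level was 1.76-fold (1.62 to 1.90) the *Aire*+/+ level under anti-PD1 and 1.48-fold (1.40 to 1.57) under isotype. Anti-PD1 over isotype gave a log2 ratio of 0.08 (0.00 to 0.17) in *Aire*+/+ and 0.33 (0.21 to 0.44) in *Aire*-/- macrophages. Monocytes followed the same order of conditions, with *Aire*-/- over *Aire*+/+ log2 ratios of 0.51 (0.39 to 0.62) under anti-PD1 and 0.49 (0.39 to 0.59) under isotype. Anti-PD1 over isotype in monocytes gave 0.22 (0.12 to 0.32) in *Aire*+/+ and 0.24 (0.13 to 0.35) in *Aire*-/-, and the intervals of neighbouring conditions in that order did not overlap. In mature dendritic cells the *Aire*-/- anti-PD1 library stood above the others, with 0.49 (0.28 to 0.70) over *Aire*+/+ anti-PD1 and 0.33 (0.15 to 0.51) over *Aire*-/- isotype. The isotype pair of mature dendritic cells did not differ beyond counting error, at -0.01 (-0.22 to 0.19). Type 2 dendritic cells (22 to 29 cells per library) had 48.3, 98.6, 165 and 236 CPM (28.6 to 76.3, 72.7 to 131, 127 to 211 and 191 to 289), overlapping T cells in the *Aire*+/+ libraries and macrophages in *Aire*-/- anti-PD1. Splenic B cells had 29.2, 26.1, 32.9 and 27.2 CPM of Cd274 (25.4 to 33.4, 22.4 to 30.2, 28.8 to 37.5 and 23.9 to 30.9), and there anti-PD1 over isotype was below 0 in *Aire*-/-, at -0.27 (-0.54 to -0.01), the opposite sign to macrophages, monocytes and mature dendritic cells of *Aire*-/- tumors. The other 3 ratios of Cd274 in B cells included 0.

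T cells made up 11.98, 17.1, 18.5 and 44.8% of tumor cells, the order of conditions that Cd274 has in macrophages. A link between them was not tested. T cell markers inside the macrophage and monocyte gates were also higher in *Aire*-/- tumors under both antibodies, and highest in *Aire*-/- anti-PD1. Between the *Aire*+/+ libraries, the isotype library had more of them in macrophages, while the monocyte sums were close, at 2.92 and 2.86 CPM. In mature dendritic cells these markers were higher under anti-PD1 in both genotypes. Macrophages made up 11.6% of cells in *Aire*-/- anti-PD1 tumors, against 31.5 to 41.6% elsewhere, and their median depth was 11368 UMIs per cell, against 14081 to 14616. Of 7 T cell markers, 6 had a row (Trac had none) and all 6 were detected in macrophages of every library, with summed levels of 64.2, 24.7, 98.4 and 293 CPM. The most abundant was Cd3d, Cd3e, Cd3d and Cd3g in that order, at 17.0, 7.35, 26.0 and 73.5 CPM. Of 4 NK cell markers, 4, 3 (Eomes at 0), 4 and 4 were detected, with sums of 2.51, 1.03, 5.27 and 19.98 CPM, led by Klrb1c in both *Aire*+/+ libraries and Klre1 in both *Aire*-/- libraries. Leaving out macrophages with 2 or more Cd3 UMIs (3.45, 1.72, 5.30 and 9.54% of them) gave *Aire*-/- over *Aire*+/+ log2 ratios for Cd274 of 0.88 under anti-PD1 and 0.59 under isotype, as large as with them. An alternative chosen after the data were seen left out macrophages with any UMI of a T or NK cell marker, which kept 1144, 771, 527 and 197 cells. Cd274 was then 149.6, 157, 219.6 and 282 CPM, with log2 ratios of 0.84 and 0.55. In mature dendritic cells 3, 5, 3 and 5 of the 6 T cell markers were detected (Cd4 at 0 in all 4 libraries, Cd3d at 0 in both isotype libraries, Cd3e at 0 in *Aire*+/+ isotype and Lck at 0 in *Aire*-/- isotype), with sums of 43.7, 181, 15.2 and 144 CPM and Cd8a the most abundant. NK cell markers summed to 1.99, 9.68, 0 and 32.7 CPM there. Leaving out the mature dendritic cells with 2 or more Cd3 UMIs (0, 2, 0 and 1 cells) gave a *Aire*-/- over *Aire*+/+ log2 ratio of Cd274 of 0.39 under anti-PD1 against 0.49 with them, and under isotype there was no such cell to leave out. Monocytes, gated for no Cd3 UMI, held 2.92, 2.86, 3.75 and 9.61 CPM of T cell markers (Lck the most abundant) and 0.561, 5.72, 2.39 and 11.4 CPM of NK cell markers, and their part in the monocyte ratios was not tested.

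Among mature dendritic cells, NK cells, T cells, macrophages and monocytes, Pdcd1lg2 showed a different order. Mature dendritic cells were highest, lymphocytes next, and macrophages and monocytes lowest in all 4 tumor libraries. Mature dendritic cells had 260.04 and 196 CPM in *Aire*+/+ mice (isotype, then anti-PD1) and 367 and 309 CPM in *Aire*-/- mice, with intervals of 217 to 309, 156 to 244, 320.2 to 419.8 and 271 to 351. NK cells had 126, 132, 111 and 146 CPM (109.5 to 145, 115 to 151, 96.4 to 127 and 133 to 159) and T cells 75.2, 82.3, 72.8 and 82.6 CPM (66.6 to 84.5, 73.5 to 91.998, 64.5 to 81.8 and 76.95 to 88.6). Macrophages had 7.74, 9.09, 21.7 and 35.9 CPM (6.54 to 9.09, 7.51 to 10.9, 18.8 to 24.9 and 29.4 to 43.4) and monocytes 4.49, 3.81, 8.36 and 8.31 CPM (3.20 to 6.11, 2.44 to 5.67, 6.19 to 11.1 and 5.68 to 11.7). No neighbours among these 5 populations overlapped in any library. Type 2 dendritic cells, at 16.1, 10.3, 41.2 and 47.3 CPM, overlapped macrophages in all 4. Neutrophils in *Aire*+/+ isotype had 88.6 CPM (42.5 to 163), overlapping T and NK cells, and 10.6 CPM in *Aire*+/+ anti-PD1, from 1 UMI. Mature dendritic cells exceeded macrophages by factors of 33.6 (26.4 to 42.8), 21.5 (16.01 to 28.9), 16.9 (13.9 to 20.6) and 8.60 (6.81 to 10.9), so the gap was narrowest in *Aire*-/- anti-PD1, where macrophages were highest. On the median-centred scale those log2 ratios were 5.19, 4.64, 4.38 and 3.20, against 5.07, 4.43, 4.08 and 3.10 on the main scale. Splenic B cells held 26.99, 23.2, 30.2 and 31.2 CPM (23.3 to 31.1, 19.8 to 27.1, 26.2 to 34.6 and 27.7 to 35.2) and splenic monocytes 0.713, 2.51, 1.22 and 14.7 CPM, the last from 6 UMIs.

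Among the 6 members, Pdcd1lg2 had the largest absolute log2 ratio in macrophages in each of the 4 pairs of conditions. Its level was 7.74 and 9.09 CPM in *Aire*+/+ mice (isotype, then anti-PD1) and 21.7 and 35.9 CPM in *Aire*-/- mice, with the *Aire*-/- libraries above both *Aire*+/+ libraries and no overlap of intervals between genotypes. The *Aire*-/- level was 3.95-fold (3.002 to 5.18) the *Aire*+/+ level under anti-PD1 and 2.80-fold (2.26 to 3.49) under isotype. Anti-PD1 over isotype gave a log2 ratio of 0.23 (-0.13 to 0.59) in *Aire*+/+ and 0.73 (0.37 to 1.07) in *Aire*-/- macrophages. T and NK cells, whose markers were most abundant in *Aire*-/- anti-PD1 macrophages, held more Pdcd1lg2 than macrophages did. Without macrophages holding 2 or more Cd3 UMIs the *Aire*-/- over *Aire*+/+ log2 ratios were 2.18 and 1.53. Without any T or NK marker UMI, in the alternative added after the data were seen, Pdcd1lg2 was 6.73 (5.57 to 8.05), 8.40 (6.84 to 10.2), 16.4 (13.7 to 19.4) and 38.5 (31.1 to 47.2) CPM. The *Aire*-/- over *Aire*+/+ log2 ratios were then 2.20 under anti-PD1 and 1.28 under isotype, and the ratio of anti-PD1 over isotype in *Aire*-/- was 1.23, larger than with those cells.

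Monocytes and mature dendritic cells also had more Pdcd1lg2 in *Aire*-/- than in *Aire*+/+ tumors, by smaller ratios. Monocytes gave log2 ratios of 1.13 (0.32 to 1.95) under anti-PD1 and 0.90 (0.27 to 1.54) under isotype from levels under 9 CPM. Mature dendritic cells gave 0.66 (0.29 to 1.04) under anti-PD1 and 0.50 (0.18 to 0.82) under isotype. Without the cells holding 2 or more Cd3 UMIs, 2 in *Aire*+/+ and 1 in *Aire*-/-, the anti-PD1 ratio was 0.66, while the isotype libraries held 0 such cells. Anti-PD1 over isotype did not differ from 0 beyond counting error in monocytes of either genotype, at -0.24 (-1.03 to 0.53) and -0.01 (-0.70 to 0.66). In mature dendritic cells it was -0.41 (-0.83 to 0.00) in *Aire*+/+ and -0.25 (-0.52 to 0.02) in *Aire*-/-. In NK cells Pdcd1lg2 was higher under anti-PD1 in *Aire*-/-, at 0.39 (0.16 to 0.63). In splenic B cells it was higher in *Aire*-/- under anti-PD1, at 0.43 (0.14 to 0.72).

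**Figure D1:**
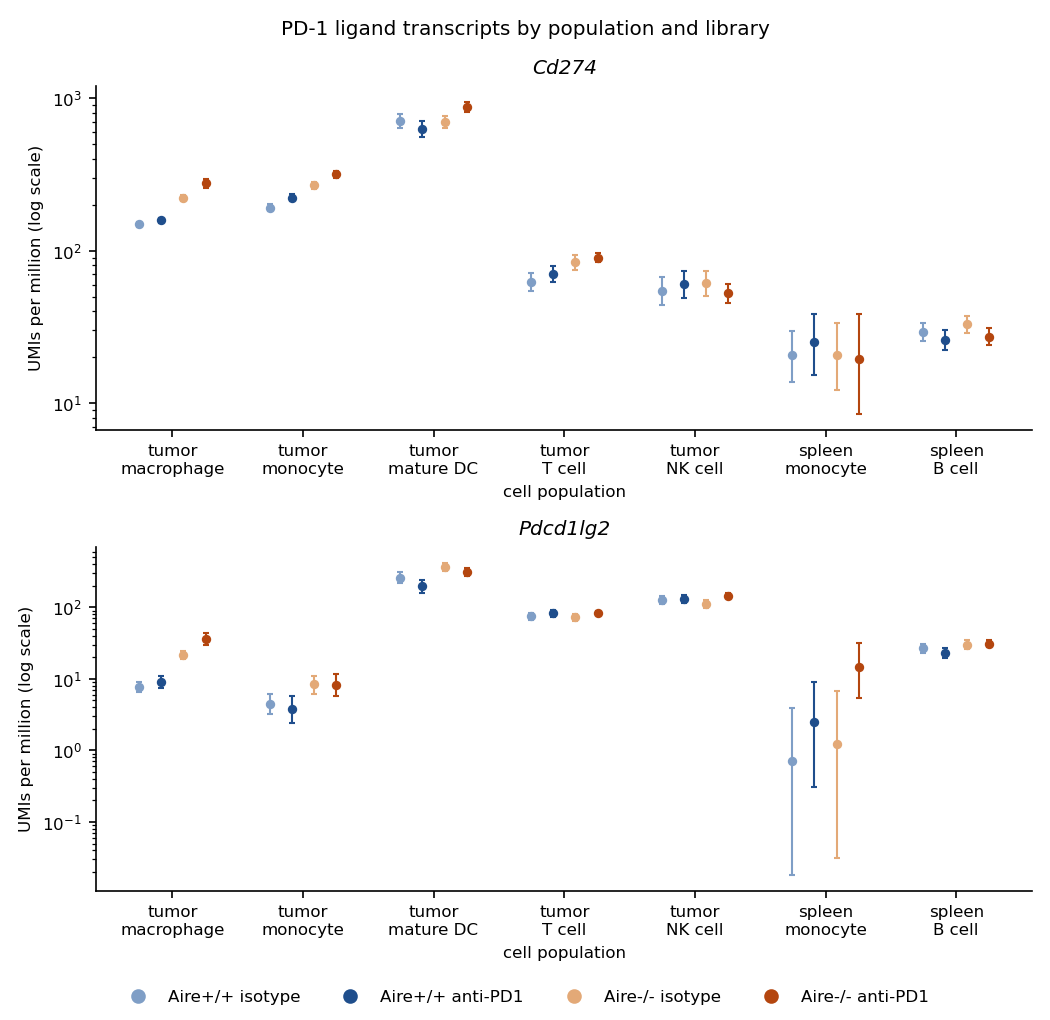
Levels of Cd274 and Pdcd1lg2 in CPM on a log axis, by cell population and tumor or spleen library, with points for each library (blue for *Aire*+/+, orange for *Aire*-/-, darker for anti-PD1) and bars for the exact 95% Poisson interval of counting error. Mature dendritic cells are above macrophages and tumor monocytes for both genes, and macrophages carry 149 to 277 CPM of Cd274 against 7.74 to 35.9 CPM of Pdcd1lg2 over the 4 tumor libraries.

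Members past a 2-fold difference are counted here beside all genes. In macrophages, 1 of 6 members (Pdcd1lg2) passed 2-fold for *Aire*-/- over *Aire*+/+ under anti-PD1, where 10.8% of 11300 genes with at least 10 UMIs did so in either direction. Under isotype it was again 1 of 6 (Pdcd1lg2), with 6.32% of 11873 genes. For anti-PD1 over isotype 0 of 6 passed in *Aire*+/+ (4.12% of 11911 genes) and 0 of 6 in *Aire*-/- (7.58% of 11100 genes). In mature dendritic cells 0 of 6 passed for *Aire*-/- over *Aire*+/+ under anti-PD1 (14.9% of 6866 genes) or isotype (13.3% of 6554 genes). For anti-PD1 over isotype in these cells 0 of 6 passed in *Aire*+/+ (13.2% of 6179 genes) and 1 of 6, Icosl, in *Aire*-/- (13.003% of 7137 genes). In monocytes 1 of 6 (Pdcd1lg2) passed under anti-PD1 (8.99% of 10304 genes) and 0 of 6 under isotype (6.59% of 10648 genes). Their anti-PD1 over isotype ratios passed for 0 of 6 in *Aire*+/+ (4.32% of 10717 genes) and 0 of 6 in *Aire*-/- (5.62% of 10136 genes). In splenic monocytes fewer members had 10 UMIs over a pair. There 1 of 3, Icosl, was past 2-fold lower for *Aire*-/- over *Aire*+/+ under anti-PD1 (10.9% of 7530 genes in either direction), from 2 against 10 UMIs with a log2 ratio of -1.36 (-4.59 to 0.88), and 0 of 4 passed under isotype (7.85% of 8616 genes). For anti-PD1 over isotype it was 0 of 3 in *Aire*+/+ (7.28% of 8622 genes) and 1 of 3, Icosl lower, in *Aire*-/- (10.4% of 7522 genes), from 2 against 11 UMIs and -1.46 (-4.67 to 0.74). In splenic B cells 0 of 6 passed for *Aire*-/- over *Aire*+/+ under anti-PD1 (4.28% of 10985 genes) or isotype (4.27% of 10891 genes), and 0 of 6 for anti-PD1 over isotype in *Aire*+/+ (3.49% of 10878 genes) or *Aire*-/- (3.83% of 10993 genes). The share of all genes depends on the minimum, and over the 20 comparisons it was 0.598 to 5.69% with at least 50 UMIs. For *Aire*-/- over *Aire*+/+, the median log2 ratio of the 6 members in macrophages was 0.10 under anti-PD1 against -0.06 over all genes, and 0.43 under isotype against -0.04. In the same order it was 0.08 against 0.10 and -0.12 against -0.05 in mature dendritic cells. Tumor monocytes had 0.07 and 0.34, each against -0.07, and splenic B cells 0.17 against 0.04 and 0.16 against 0.00. In splenic monocytes, over 3 and 4 members, it was -0.36 and 0.62, each against 0.00.

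Cd80 and Cd86 encode the B7 proteins that bind CD28 to costimulate T cells and CTLA-4 to restrain them. Cd80 was high in mature dendritic cells and at least 8.50-fold lower in macrophages, the lowest interval bound of the 4 libraries. Mature dendritic cells had 278 and 309.6 CPM in *Aire*+/+ mice (isotype, then anti-PD1) and 237 and 233 CPM in *Aire*-/- mice, with intervals of 234 to 328, 258 to 368, 199 to 279.8 and 199.9 to 269.6. Monocytes had 30.5, 37.8, 30.2 and 29.1 CPM and macrophages 24.2, 24.1, 22.4 and 19.3 CPM, with overlapping intervals in *Aire*-/- anti-PD1 alone. The ratio of monocytes to macrophages in that library was 1.51 (1.09 to 2.11). Neutrophils, in the *Aire*+/+ libraries, had 115 CPM (61.3 to 197) and 116 CPM (58.1 to 208), below mature dendritic cells without overlap, and type 2 dendritic cells, at 56.3, 67.8, 59.3 and 47.3 CPM (34.9 to 86.1, 46.7 to 95.2, 37.6 to 88.9 and 28.5 to 73.8), overlapped those neutrophils, and overlapped monocytes in *Aire*-/- anti-PD1 alone. T cells had 20.6, 12.7, 12.2 and 14.1 CPM. The ratio of mature dendritic cells to macrophages was 11.5 (9.45 to 13.9), 12.8 (10.4 to 15.8), 10.6 (8.50 to 13.2) and 12.1 (8.91 to 16.6) with intervals that overlapped between all conditions. Cd80 was detected in 89.8, 88.6, 79.5 and 76.4% of mature dendritic cells (77.8 to 96.6, 73.3 to 96.8, 64.7 to 90.2 and 62.98 to 86.8) and in 25.4, 24.6, 25.1 and 17.8% of macrophages (23.01 to 27.97, 21.6 to 27.7, 21.7 to 28.8 and 13.2 to 23.3). After thinning each cell to 2000 UMIs the shares were 43.5, 42.9, 37.5 and 33.4% and 4.77, 5.15, 4.42 and 3.74%. Among lymphocytes, T cells had Cd80 in 14.8, 9.55, 11.1 and 10.4% of cells (11.3 to 18.97, 6.78 to 12.97, 7.96 to 14.9 and 8.54 to 12.6) and in 3.80, 2.49, 2.81 and 2.71% after thinning. NK cells had Cd80 in 2.94, 0, 0 and 0% of cells (0.611 to 8.36, 0 to 3.16, 0 to 2.51 and 0 to 1.44) and in 0.677, 0, 0 and 0% after thinning. Median depths were 10101, 11413, 13407 and 12518 UMIs in mature dendritic cells, 14570.0, 14616, 14081 and 11368 in macrophages, and 12392, 10130.0, 10110.0 and 9562 in NK cells.

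Cd86 was spread more evenly over the myeloid populations. Mature dendritic cells had 345, 319, 283 and 348 CPM (296 to 401, 267 to 379, 242 to 329 and 307 to 392), monocytes 145, 167, 189 and 157 CPM (138 to 154, 157 to 177, 178 to 200.4 and 145 to 170.4) and macrophages 129, 146, 178 and 166 CPM (124 to 134, 139.7 to 153, 169 to 187 and 152 to 182). Monocytes lay above macrophages without overlap in both *Aire*+/+ libraries, and the intervals overlapped in both *Aire*-/- libraries. Type 2 dendritic cells, at 169, 219.8, 309 and 212 CPM, ranked second to mature dendritic cells in 3 tumor libraries and above them, with overlapping intervals, in *Aire*-/- isotype. These levels rest on 63, 107, 120 and 85 UMIs. The *Aire*+/+ isotype interval of type 2 dendritic cells, 129.9 to 216, overlapped those of monocytes and macrophages. Mature dendritic cells exceeded macrophages by factors of 2.68 (2.28 to 3.12), 2.18 (1.82 to 2.61), 1.59 (1.35 to 1.87) and 2.09 (1.80 to 2.43). Cd86 was detected in 74.5, 74.1, 81.2 and 67.2% of macrophages (71.9 to 76.9, 70.9 to 77.1, 77.8 to 84.3 and 60.9 to 73.1), or 22.8, 24.3, 28.4 and 25.5% after thinning. Of T cells 21.7, 18.6, 21.6 and 23.3% had Cd86 (17.5 to 26.3, 14.8 to 22.9, 17.3 to 26.3 and 20.6 to 26.2), or 6.43, 5.65, 6.61 and 7.23% after thinning. The share of NK cells was 3.92, 2.61, 0.690 and 1.18% (1.08 to 9.74, 0.541 to 7.43, 0.0175 to 3.78 and 0.244 to 3.41), or 0.733, 0.599, 0.364 and 0.371% after thinning. In the spleen, B cells had 26.3, 28.3, 27.5 and 27.1 CPM and monocytes 14.97, 15.04, 24.5 and 12.3 CPM, the latter 0.103 (0.0635 to 0.158), 0.0902 (0.0464 to 0.158), 0.129 (0.0788 to 0.201) and 0.0778 (0.0252 to 0.183) of the tumor monocyte level.

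By condition, ratios of Cd86 and Cd80 rest on different numbers of UMIs, 491 against 57 in macrophages of *Aire*-/- anti-PD1 tumors. A difference between the genes in their ratios was not tested. Macrophage Cd86 was higher in *Aire*-/- than in *Aire*+/+ under isotype, with a log2 ratio of 0.46 (0.37 to 0.55), and less so under anti-PD1, with 0.18 (0.04 to 0.33). Anti-PD1 over isotype gave 0.18 (0.09 to 0.27) in *Aire*+/+ and -0.10 (-0.24 to 0.05) in *Aire*-/- macrophages. Monocytes gave 0.38 (0.26 to 0.49) for *Aire*-/- over *Aire*+/+ under isotype and -0.08 (-0.23 to 0.06) under anti-PD1. Their ratio of anti-PD1 over isotype was above 0 in *Aire*+/+, at 0.20 (0.08 to 0.32), and below 0 in *Aire*-/-, at -0.26 (-0.41 to -0.12), and the difference between genotypes was not tested. Each of these Cd86 ratios was under 1.5-fold. In macrophages all 4 Cd80 ratios included 0, running from -0.32 to 0.00. Cd80 was lower in *Aire*-/- than in *Aire*+/+ under anti-PD1 in mature dendritic cells, at -0.41 (-0.75 to -0.07), and in monocytes, at -0.38 (-0.71 to -0.05). For these monocytes the log2 ratio that a scaling sets to 0 was -0.06 for the median gene and -0.05 for TMM factors, which reaches the upper bound. In *Aire*+/+ monocytes Cd80 was higher under anti-PD1 than under isotype, at 0.31 (0.05 to 0.57), and that library was the highest of the 4. Mature dendritic cell Cd86 ratios included 0 except for anti-PD1 over isotype in *Aire*-/-, at 0.30 (0.01 to 0.59). In that comparison the log2 ratio that a scaling sets to 0 was 0.03 for the median gene and 0.05 for TMM factors. Both lie inside the interval, so on either scale this ratio did not differ beyond counting error.

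Icosl encodes the ligand of ICOS, a costimulatory receptor of activated and follicular helper T cells. It was highest in splenic B cells among the 4 gated populations of both tissues. Splenic B cells had 111 and 123 CPM in *Aire*+/+ mice (isotype, then anti-PD1) and 128 and 125 CPM in *Aire*-/- mice, with intervals of 104 to 119, 115 to 132, 119.8 to 137 and 117 to 132. Splenic monocytes had 9.26, 12.5, 13.5 and 4.90 CPM (4.93 to 15.8, 6.01 to 23.1, 6.72 to 24.1 and 0.594 to 17.7). Icosl was detected in 40.2, 40.3, 44.5 and 43.6% of splenic B cells (37.6 to 42.9, 37.7 to 42.8, 41.8 to 47.2 and 41.3 to 45.997) at median depths of 4233, 4169, 4479 and 4305 UMIs, and in 21.99, 22.9, 24.1 and 23.9% after thinning. Splenic T cells, taken here as a type that should lack it, had 1.61, 1.30, 2.49 and 2.06% (0.524 to 3.71, 0.422 to 2.997, 1.25 to 4.42 and 0.993 to 3.76) at 5805, 5580.5, 5531 and 5209 UMIs, and 0.376, 0.527, 0.971 and 0.774% after thinning. Shares of UMIs, computed after the levels were seen, placed 92.0, 94.2, 94.99 and 96.8% (90.0 to 93.7, 92.4 to 95.6, 93.4 to 96.3 and 95.6 to 97.7) of all splenic Icosl UMIs in B cells. B cell Icosl was higher in *Aire*-/- than in *Aire*+/+ under isotype, with a log2 ratio of 0.20 (0.06 to 0.34), and the ratio included 0 under anti-PD1, at 0.02 (-0.12 to 0.15). Under anti-PD1 it was 1.11-fold (1.003 to 1.22) the isotype level in *Aire*+/+, while the same ratio in *Aire*-/- included 0, at -0.04 (-0.17 to 0.09). On the log2 scale the *Aire*+/+ ratio was 0.15 (0.00 to 0.29). There the log2 ratio that a scaling sets to 0 was 0.02 for the median gene and 0.01 for TMM factors, inside the interval.

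In the tumor, mature dendritic cells had 47.6, 79.8, 30.5 and 75.9 CPM of Icosl (30.5 to 70.9, 54.9 to 112, 18.1 to 48.2 and 57.6 to 98.1), macrophages 18.98, 21.9, 19.2 and 17.3 CPM (17.1 to 21.04, 19.4 to 24.6, 16.5 to 22.3 and 12.9 to 22.7) and monocytes 17.4, 17.5, 15.5 and 13.5 CPM (14.8 to 20.3, 14.4 to 21.05, 12.5 to 19.1 and 10.1 to 17.7). The macrophage and monocyte intervals overlapped in all 4 libraries, and mature dendritic cells overlapped type 2 dendritic cells, at 67.1, 55.5, 48.97 and 34.8 CPM, in 4 of 4. The ratio of monocytes to macrophages was below 1 in *Aire*+/+ anti-PD1, at 0.797 (0.633 to 0.998), and its interval included 1 in the other libraries. Mature dendritic cells exceeded macrophages by factors of 2.51 (1.59 to 3.79), 3.64 (2.46 to 5.24), 1.58 (0.918 to 2.58) and 4.39 (2.96 to 6.53), with an interval that included 1 under *Aire*-/- isotype. Anti-PD1 over isotype in mature dendritic cells was 1.32 (0.53 to 2.17) in *Aire*-/-, the largest log2 ratio of any member in these cells, from 58 against 18 UMIs, and 0.74 (-0.06 to 1.57) in *Aire*+/+. In macrophages and monocytes all 8 condition ratios of Icosl included 0.

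Pvr encodes the poliovirus receptor (CD155), which inhibits T and NK cells through TIGIT and activates them through CD226. It was highest in mature dendritic cells, at 59.6, 72.6, 74.5 and 74.5 CPM (40.2 to 85.01, 48.96 to 104, 54.1 to 100.03 and 56.5 to 96.6), and type 2 dendritic cells, at 24.1, 45.2, 41.2 and 34.8 CPM, overlapped them in all 4 libraries. Monocytes had 24.4, 26.7, 30.2 and 31.2 CPM (21.3 to 27.9, 22.8 to 31.02, 25.9 to 35.002 and 25.8 to 37.3) and macrophages 22.3, 24.2, 29.2 and 24.4 CPM (20.2 to 24.5, 21.6 to 27.1, 25.9 to 32.9 and 19.1 to 30.7), overlapping in all 4 libraries. T cells had 12.3, 13.7, 10.6 and 8.23 CPM and NK cells 6.70, 3.10, 2.17 and 2.58 CPM. Mature dendritic cells exceeded macrophages by factors of 2.67 (1.78 to 3.87), 2.999 (1.99 to 4.37), 2.55 (1.81 to 3.51) and 3.06 (2.12 to 4.39). Pvr was higher in *Aire*-/- than in *Aire*+/+ under isotype in macrophages, with a log2 ratio of 0.39 (0.17 to 0.61), and in monocytes, with 0.31 (0.01 to 0.60). The other 6 ratios of Pvr in these populations, and all 4 in mature dendritic cells, included 0. Splenic B cells had 1.52, 1.88, 1.58 and 2.29 CPM.

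**Figure D2:**
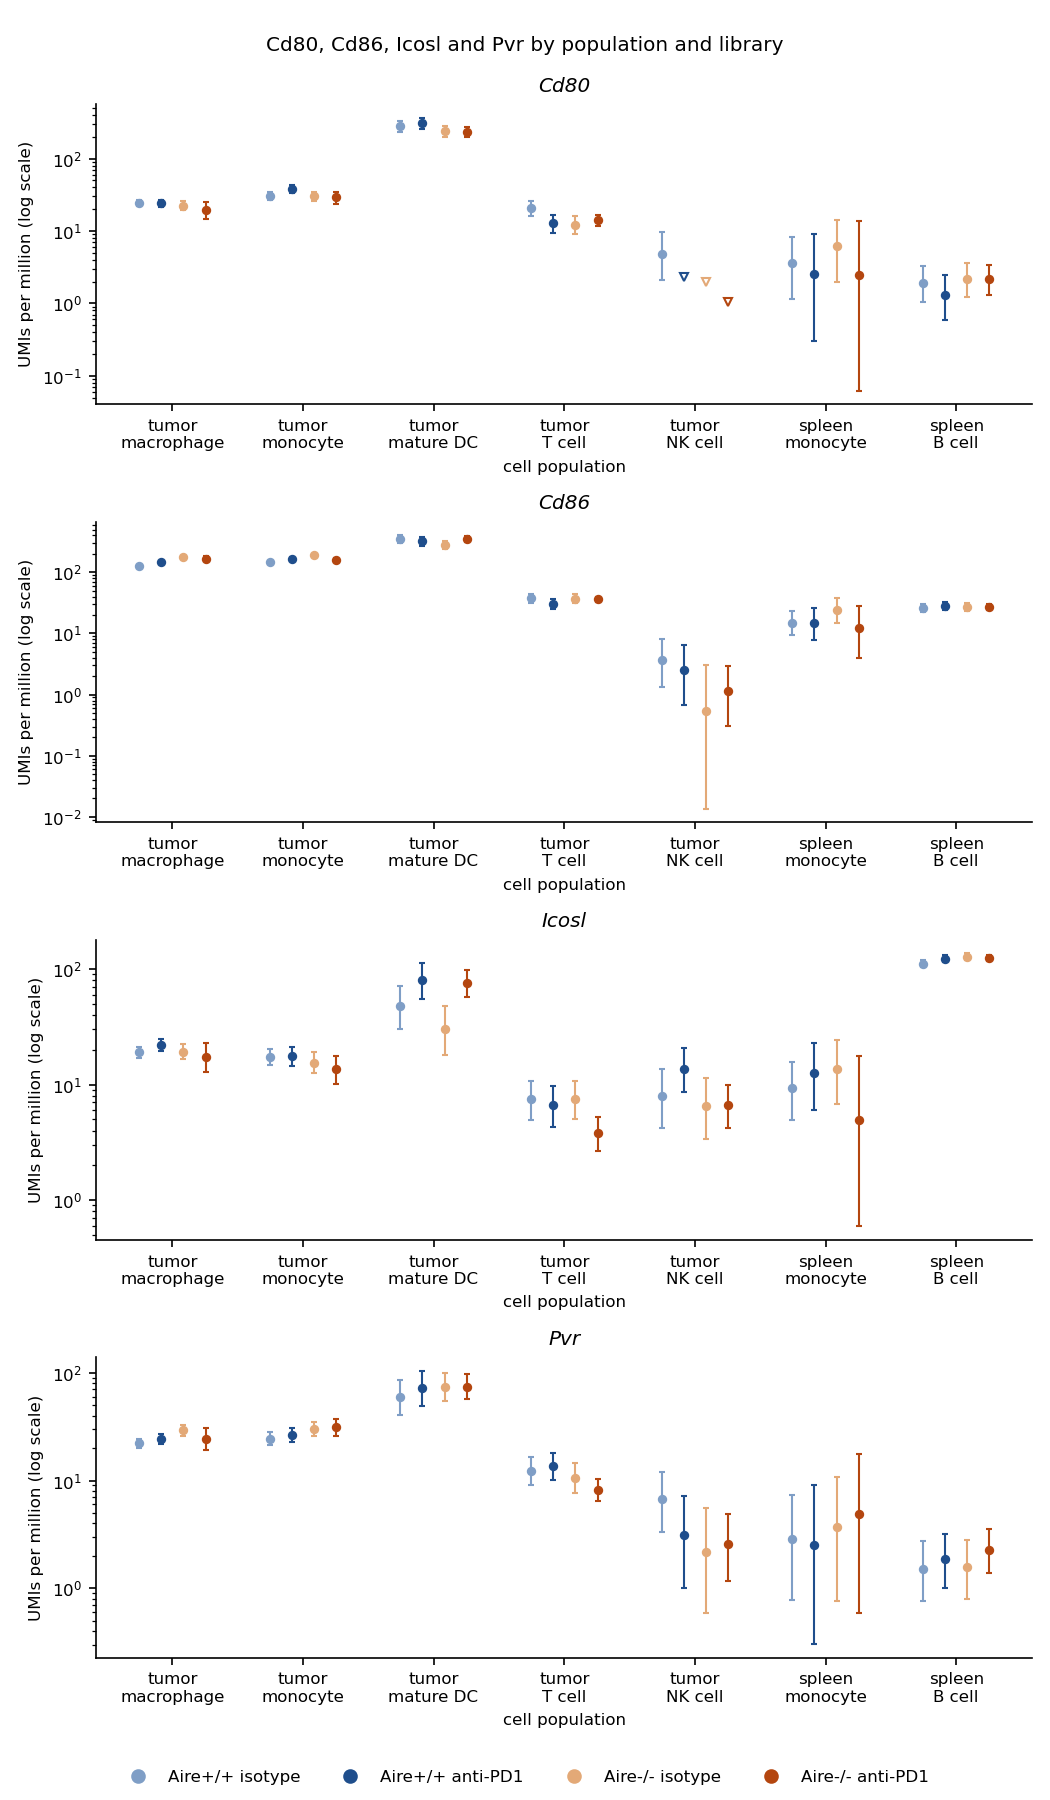
Levels of Cd80, Cd86, Icosl and Pvr in CPM on a log axis, by cell population and library, with points for each library (blue for *Aire*+/+, orange for *Aire*-/-, darker for anti-PD1), bars for the exact 95% Poisson interval and open triangles for the upper limit where there were 0 UMIs. Cd80 in mature dendritic cells (233 to 309.6 CPM) stands clear of macrophages (19.3 to 24.2 CPM), and Icosl is high in splenic B cells (111 to 128 CPM).

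**Figure D3:**
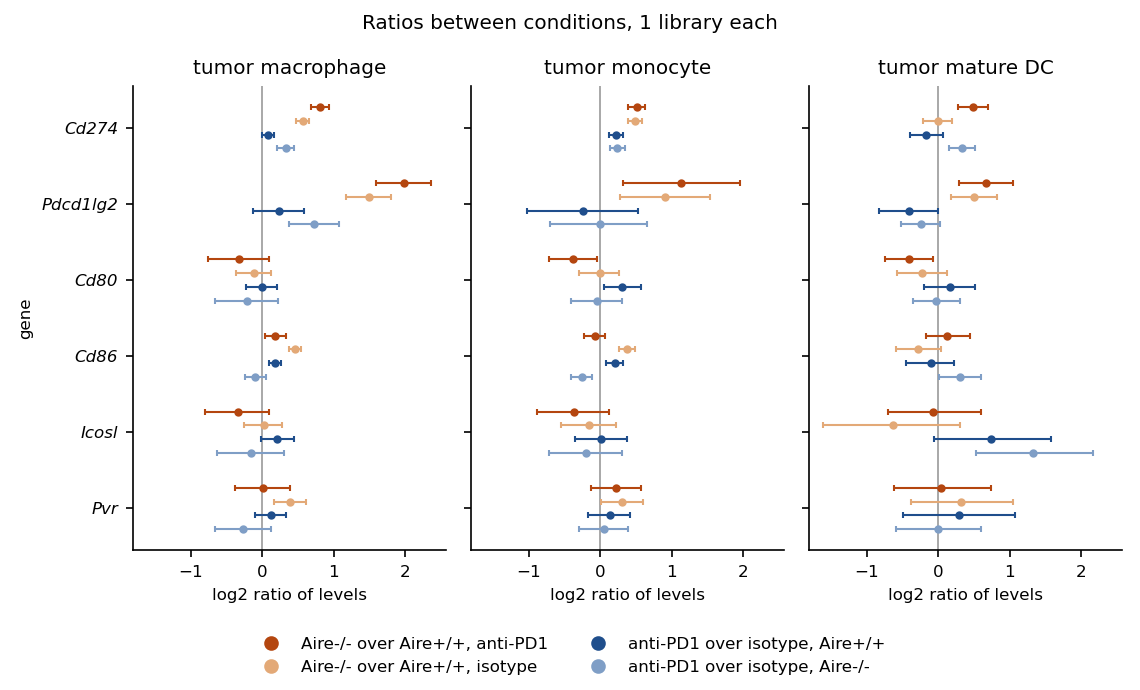
Log2 ratios between conditions of the 6 members in tumor macrophages, monocytes and mature dendritic cells, with points for the ratio (orange for *Aire*-/- over *Aire*+/+, blue for anti-PD1 over isotype) and bars for the exact 95% interval of counting error. The macrophage ratio of Pdcd1lg2 for *Aire*-/- over *Aire*+/+ under anti-PD1, 1.98, is the highest of all those drawn.

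Within single cells, mature dendritic cells commonly held several ligands at once. Transcripts of all 4 of Cd274, Pdcd1lg2, Cd80 and Cd86 were found in 26 of 49, 16 of 35, 24 of 44 and 32 of 55 mature dendritic cells. In macrophages the same was true of 29 of 1219, 22 of 814, 30 of 585 and 11 of 241. Of the macrophages with Pdcd1lg2, 76 of 95, 55 of 62, 87 of 96 and 38 of 45 also had Cd274, which was detected in 64.3, 67.1, 75.4 and 73.03% of all macrophages. Detection depends on depth, and the cells of a library are not replicates.

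The share of a tumor's ligand transcripts in each population, also computed after the levels were seen, follows cell numbers as well as levels. Macrophages held 46.4, 40.7, 37.5 and 17.6% of Cd274 UMIs (45.1 to 47.6, 39.3 to 42.1, 36.2 to 38.8 and 16.6 to 18.8) and monocytes 27.8, 28.7, 28.7 and 26.3% (26.7 to 28.9, 27.4 to 29.9, 27.5 to 29.9 and 25.1 to 27.6). Mature dendritic cells held 5.80, 5.31, 7.55 and 14.6% (5.23 to 6.41, 4.70 to 5.97, 6.86 to 8.28 and 13.6 to 15.6) and T cells 3.81, 5.43, 5.90 and 18.4% (3.35 to 4.32, 4.81 to 6.10, 5.29 to 6.56 and 17.2 to 19.5). In *Aire*-/- anti-PD1 the macrophage share was lowest, and T cells and mature dendritic cells had their highest shares. For Pdcd1lg2, T cells held 30.4, 37.1, 24.9 and 41.7% (27.5 to 33.5, 33.8 to 40.4, 22.4 to 27.5 and 39.4 to 43.9), the highest share in all 4 libraries. NK cells held 22.4, 25.3, 18.2 and 27.1% (19.8 to 25.3, 22.4 to 28.4, 15.95 to 20.5 and 25.1 to 29.2), second in 3 of the 4 libraries. In *Aire*-/- isotype mature dendritic cells were second, with an interval that overlapped NK cells. Macrophages held 16.03, 13.7, 17.9 and 5.64% (13.7 to 18.6, 11.4 to 16.2, 15.7 to 20.3 and 4.64 to 6.78) and mature dendritic cells 14.2, 9.62, 19.2 and 12.6% (12.004 to 16.6, 7.71 to 11.8, 16.96 to 21.6 and 11.1 to 14.1).

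Other genes of the same pathways were counted from lists chosen with the members, and the share of all genes past 2-fold higher and lower is given for each comparison. The lists were chosen with earlier results of these data known, so the counts describe and are no independent test. The study itself reports Cxcl9, Nos2 and several interferon-stimulated genes as higher in *Aire*-/- macrophages under anti-PD1. In macrophages under anti-PD1, *Aire*-/- over *Aire*+/+, 8 of 18 interferon-gamma-induced genes were past 2-fold higher and 1 lower, with a median log2 ratio of 0.94 against -0.06 over all genes. Of all genes, 5.64% were past 2-fold higher and 5.18% lower. The higher ones included the chemokine gene Cxcl9 (853 against 339.8 CPM, log2 ratio 1.33, interval 1.26 to 1.40), the GTPase gene Gbp2 (918 against 267 CPM, log2 ratio 1.78, interval 1.71 to 1.85) and Nos2 (117 against 17.95 CPM, log2 ratio 2.71, interval 2.46 to 2.95), the inducible nitric oxide synthase. Of 14 genes of interferon-gamma signaling and Cd274 regulation, 1 was past 2-fold higher and 0 lower (median 0.41), the feedback inhibitor gene Socs1 (235 against 95.5 CPM, log2 ratio 1.30, interval 1.16 to 1.43). Irf1, a transcription factor gene of that pathway, was under 2-fold (339.9 against 198 CPM, log2 ratio 0.78, interval 0.67 to 0.88). Of 7 receptors of the members, 7 were past 2-fold higher (median 2.87), Pdcd1 among them (22.3 against 2.14 CPM, log2 ratio 3.39, interval 2.72 to 4.09). These are T and NK cell genes, whose markers were also most abundant in macrophages of *Aire*-/- anti-PD1 tumors, and their part in that count was not tested. Of 11 genes with enough UMIs in the list called other ligands, 0 passed in either direction (median -0.22). That list holds B7, nectin and TNF-family ligands, the TNF receptor family genes Cd40 and Tnfrsf14, and Lgals9, Cd48 and Ceacam1. Of 12 dendritic cell maturation genes 3 were higher and 0 lower (median 0.21).

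Under isotype, *Aire*-/- over *Aire*+/+ macrophages had 5 of 17 interferon-gamma-induced genes past 2-fold higher and 0 lower, with a median of 0.81 against -0.04 over all genes, of which 3.52% were past 2-fold higher and 2.80% lower. Cxcl9 was among them (569 against 178 CPM, log2 ratio 1.68, interval 1.62 to 1.74). The signaling list had 0 of 14 in either direction (median 0.21), the other ligands 0 of 11 (median 0.02), the receptors 1 higher and 1 lower of 7 (median 0.15), and the maturation genes 4 higher and 2 lower of 14 (median 0.31). Cd40, a TNF receptor family gene that T cell help engages, was under 2-fold (181 against 107 CPM, log2 ratio 0.76, interval 0.66 to 0.85). For anti-PD1 over isotype in *Aire*+/+ macrophages the counts higher and lower were 0 and 0 of 11 other ligands (median 0.09), 0 and 5 of 7 receptors (-1.17), 0 and 0 of 14 signaling genes (0.01), 1 and 0 of 18 induced genes (-0.01) and 0 and 4 of 14 maturation genes (0.12), against -0.02 over all genes (1.65% higher and 2.48% lower). In *Aire*-/- they were 0 and 0 of 11 (median -0.30), 4 and 0 of 7 (1.58), 0 and 0 of 14 (0.16), 1 and 0 of 17 (0.12) and 2 and 2 of 13 (-0.10), against -0.04 over all genes (444 of 11100 higher and 397 lower). T and NK cell markers in macrophages were likewise lower under anti-PD1 in *Aire*+/+ and higher in *Aire*-/-, and their part in these receptor counts was not tested.

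In mature dendritic cells under anti-PD1, *Aire*-/- over *Aire*+/+, 8 of 16 induced genes were past 2-fold higher and 0 lower (median 0.96 against 0.10 over all genes, of which 10.5% were higher and 4.33% lower), with Cxcl9 the most different (443 against 24.2 CPM, log2 ratio 4.20, interval 3.30 to 5.27). The other ligands had 3 higher and 2 lower of 9 (median -0.22), including Tnfsf9, which encodes the 4-1BB ligand (166 against 358 CPM, log2 ratio -1.11, interval -1.46 to -0.76). The signaling list had 0 of 13 (median 0.26), the receptors 0 higher and 2 lower of 3 (median -1.15), and the maturation genes 1 higher and 0 lower of 14 (median 0.03). Under isotype the induced genes had 1 higher and 1 lower of 16 (median 0.15 against -0.05 over all genes, 6.16% of them higher and 7.17% lower), the other ligands 1 and 1 of 11 (0.11), the signaling list 0 of 13 (0.00), the receptors 0 of 1, and the maturation genes 1 and 1 of 14 (-0.07). Il12b, a subunit of the T cell-polarizing cytokine IL-12, was the maturation gene past 2-fold higher (1218 against 266 CPM, log2 ratio 2.19, interval 1.93 to 2.47). Anti-PD1 over isotype in mature dendritic cells had 1 higher and 6 lower of 16 induced genes in *Aire*+/+ (median -0.48 against -0.07, with 5.13% of all genes higher and 8.03% lower) and 1 higher and 0 lower in *Aire*-/- (0.27 against 0.08, with 8.67% and 4.33%). The *Aire*+/+ anti-PD1 library, with 35 of these cells, was thus the low one for Cxcl9, at 24.2 CPM against 85.4, 278 and 443 in the others. In *Aire*+/+ the other lists had 1 higher and 3 lower of 10 other ligands (0.06), 0 of 13 signaling genes (-0.24), 1 higher of 2 receptors and 1 higher of 14 maturation genes (0.01). In *Aire*-/- they had 1 higher of 10 (-0.14), 0 of 13 (0.17), 0 of 1 and 1 higher of 14 (0.07).

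In monocytes under anti-PD1, *Aire*-/- over *Aire*+/+, 6 of 18 induced genes were higher and 0 lower (median 0.60 against -0.07, with 2.87% of all genes higher and 6.11% lower), 1 of 13 signaling genes was higher (0.31), 0 of 9 maturation genes passed (0.13), 1 of 11 other ligands was lower (-0.13), and 0 of 3 receptors passed. Under isotype the monocyte counts were 1 higher of 18 induced genes (0.58 against -0.07, with 2.70% of all genes higher and 3.90% lower), 2 higher of 13 signaling genes (0.30), 0 of 9 maturation genes (0.39) and 1 lower of 11 other ligands (-0.03), with 0 receptors measurable. Anti-PD1 over isotype gave 0 of 18 induced genes in *Aire*+/+ monocytes (0.05 against 0.00, with 2.46% of all genes higher and 1.86% lower) and 2 higher of 18 in *Aire*-/- (0.08 against -0.01, with 2.67% and 2.95%). The other lists gave 0 of 13 signaling genes (0.06), 0 of 9 maturation genes (0.22), 1 lower of 11 other ligands (-0.04) and 2 higher of 3 receptors in *Aire*+/+, and 0 of 13 (0.02), 0 of 9 (0.00), 0 of 10 (-0.11) and 0 receptors measurable in *Aire*-/-.

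The spleen was counted with the same lists. In splenic monocytes under anti-PD1, *Aire*-/- over *Aire*+/+, 4 of 13 induced genes were higher and 0 lower (median 0.31 against 0.00, with 306 of 7530 genes higher and 512 lower), with Igtp, a GTPase gene, among the higher ones (108 against 30.1 CPM, log2 ratio 1.84, interval 1.09 to 2.62). The signaling list had 2 higher of 12 (0.07), the maturation genes 2 higher of 7 (0.27) and the other ligands 0 of 6 (0.02). Markers of type 2 dendritic cells were highest in that library too, with 3, 3, 3 and 2 of 4 detected (Flt3, which the gate bars, at 0 in each, and Clec4a4 at 0 in the last), sums of 22.8, 36.4, 58.7 and 145 CPM, and Clec10a the most abundant in *Aire*+/+ and Cd209a in *Aire*-/-, and their part in these counts was not tested. Under isotype the counts higher and lower were 2 and 0 of 15 induced genes (0.39 against 0.00, with 3.19% and 4.65% of all genes), 0 and 0 of 13 signaling genes (0.11), 2 and 1 of 8 maturation genes (0.03) and 0 and 1 of 7 other ligands (-0.02). Anti-PD1 over isotype gave 0 and 1 of 14 (0.17 against 0.01, with 3.29% and 3.99%), 0 and 1 of 13 (0.17), 1 and 0 of 7 (-0.07) and 0 and 0 of 7 (0.00) in *Aire*+/+. In *Aire*-/- it gave 2 and 1 of 15 (0.14 against 0.00, with 5.38% and 5.05%), 0 and 0 of 12 (0.17), 1 and 1 of 8 (0.33) and 0 and 0 of 7 (0.15). No receptor had 10 UMIs in any of these 4 comparisons. For anti-PD1 over isotype in *Aire*-/- splenic monocytes, 51.6% of the genes past 2-fold were higher. That share was 36.03% with median centring and 34.9% with TMM factors, so the balance of higher and lower genes depended on the scaling.

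In splenic B cells the induced genes had 0 past 2-fold of 14 for *Aire*-/- over *Aire*+/+ under anti-PD1 (median 0.04 against 0.04, with 2.69% of all genes higher and 1.58% lower) and 1 higher of 15 under isotype (0.08 against 0.00, with 1.47% and 2.80%). Anti-PD1 over isotype gave 0 of 14 in *Aire*+/+ (0.13 against 0.02, with 1.24% and 2.25%) and 1 lower of 15 in *Aire*-/- (0.10 against 0.04, with 2.62% and 1.21%). In that order of comparisons the signaling list had 0 of 13 in each (0.06, 0.13, 0.12 and 0.04), and the other ligands had 0, 1, 2 and 0 lower and 0 higher of 8 (0.08, 0.00, -0.02 and -0.01). The maturation genes had 2, 0, 0 and 1 higher and 0, 0, 1 and 0 lower of 12 (0.06, -0.02, 0.02 and 0.22). The receptors had 3 and 0 of 7 higher and lower (0.92), 2 and 1 of 5 (0.30), 1 and 1 of 6 (-0.06) and 3 and 0 of 7 (0.77). These are T and NK cell genes, and the B cells held 6 of 6 T cell markers in every library, with sums of 60.1, 83.8, 81.8 and 123 CPM and Lck the most abundant, and 4 of 4 NK cell markers, with sums of 8.58, 2.45, 9.78 and 12.02 CPM, led by Ncr1 under isotype and Klrb1c under anti-PD1. Their part in the receptor counts was not tested.

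The genes whose levels most resembled those of the PD-1 ligands were ranked by Pearson's r over 33 points, each a population of at least 50 cells in a library, among 5699 genes. The points share libraries and differ in depth, so r is a description. Mature dendritic cells enter as 1 of the 33 points, since the other 3 libraries held fewer than 50 of them. For Cd274 the closest were Oasl1 and Tnip3 (0.93 each) and Ifi35, Isg15 and Tap1 (0.92 each). For Pdcd1lg2 they were P2ry10 (0.93), Arpp19 (0.88), Acadl and Csrp1 (0.85 each) and Eif1ax (0.84).

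Cd274 and Pdcd1lg2 lie beside each other on chromosome 19, at bases 29362107 to 29388095 and 29410919 to 29472927 of GRCm38.p6, both on the plus strand and 22823 bases apart with 0 annotated genes wholly between them. Cd80 and Cd86 share chromosome 16, 1791271 bases apart and on opposite strands, while Icosl is on chromosome 10 and Pvr on chromosome 7. An antisense transcript, A930007I19Rik, overlaps the end of Pdcd1lg2 and had 11, 11, 7 and 0 UMIs in tumor macrophages. Antisense annotation overlapping Cd274 and Pvr, and a pseudogene overlapping Pvr, had no row, and whether counting used the strand was not given in the sources used here.

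Promoter windows of 300 bases were available for 4 of the 6 members, Cd274, Pdcd1lg2, Cd80 and Icosl, while Cd86 and Pvr had no entry. Both PD-1 ligand windows are printed to show the letters that the search read, from RefSeq GRCm38.p6, chr19:29367188-29367487 and chr19:29410669-29410968, both on the plus strand. Of 3 motifs searched, 2 had a match in a member window, and TTCNNNGAA, held by 8.30% of 32851 windows, was in 0 of the 4. Capitals mark a match on either strand, and the Cd274 window lies inside the annotated span of the gene.

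Cd274 promoter: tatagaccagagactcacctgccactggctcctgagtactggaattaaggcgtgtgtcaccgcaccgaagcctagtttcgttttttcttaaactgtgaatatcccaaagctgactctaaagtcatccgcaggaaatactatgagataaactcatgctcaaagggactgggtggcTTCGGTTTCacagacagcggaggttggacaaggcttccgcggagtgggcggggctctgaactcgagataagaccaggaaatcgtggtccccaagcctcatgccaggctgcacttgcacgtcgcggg

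Pdcd1lg2 promoter: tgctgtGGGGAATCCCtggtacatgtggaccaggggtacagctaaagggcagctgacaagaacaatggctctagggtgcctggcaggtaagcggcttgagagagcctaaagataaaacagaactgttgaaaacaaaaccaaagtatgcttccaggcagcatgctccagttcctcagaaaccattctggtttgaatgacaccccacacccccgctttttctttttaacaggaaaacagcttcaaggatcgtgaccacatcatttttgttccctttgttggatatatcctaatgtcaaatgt

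In Cd274, bases 175 to 183 match GAAANNGAA on the reverse strand, a core of interferon response elements that 8.56% of 32851 promoter windows hold. In Pdcd1lg2, bases 7 to 16 match the NF-kappaB consensus, held by 4.51% of windows. A match describes the letters and says nothing of binding.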

How the data were processed

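The deposited files hold counts: UMI counts per gene and cell barcode that the authors made with Cell Ranger for 16 libraries from 10x Genomics kits. Of these, the 8 CD45+ libraries were used. For sorted CD45+ or CD8+ cells the study's methods describe 3′ kits and also another kit that adds TCR sequences. They give a Cell Ranger version for that other kit and not for the 3′ kits. The build is GRCm38 per the submitters' processing notes. Whether counting used the strand is not given in the sources used here. The rows of a symbol were summed. Cells needed at least 200 genes and at most 20% mitochondrial UMIs, the study's filter. The cells kept equal the study's stated counts in every CD45+ library except the tumor *Aire*-/- isotype library, which differs by a single cell.

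Samples were grouped by genotype and antibody as labelled, 1 library each, so no test between conditions was made. Levels, shares and ratios with exact 95% intervals were computed in Python 3.11.15 with numpy 2.4.6, scipy 1.17.1 and pandas 2.3.3, and drawn with matplotlib 3.10.9. The code was tested on simulated data. Comparison populations were gated by Cd3 UMIs (T cells, at least 2), Ncr1 (NK cells), S100a8, S100a9 and Csf3r (neutrophils) and Flt3 with Cd209a, Clec4a4 or Clec10a (type 2 dendritic cells). Shares were also computed after thinning each cell to 2000 UMIs. A gene counted as past 2-fold among those with at least 10 UMIs over the pair, and a gene at 0 got a floor of 3 counts.

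The members and lists were chosen with earlier results of these data known. The lists hold 16 B7, nectin and TNF-family ligands and related genes, called other ligands here, and 7 receptors of the members. They also hold 14 interferon-gamma signaling genes and Cd274 regulators, 18 interferon-gamma-induced genes and 15 dendritic cell maturation genes. The rule names genes of a list with at least 30 UMIs over the pair and the largest absolute log2 ratio, up to 5 per list and comparison, of which the text gives examples. Likeness used log2 of the level plus 10 CPM among genes with a mean of at least 20 CPM. Alternatives were TMM factors (edgeR 4.0.16 in R 4.3.3), median centring, thinning, the mean per cell, stricter or overlapping gates, other cell filters and other UMI minimums. Leaving out macrophages with T or NK cell marker UMIs, the shares of UMIs and the levels of the overlapping antisense gene were chosen after seeing the data. CD8+ libraries were left out of the comparisons since they were sorted for another cell type.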

Additional observations from a re-analysis of the deposited data

Results flagged for a closer look

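Cd86 in tumor monocytes was flagged because the ratio of anti-PD1 over isotype had opposite signs in the genotypes, with a log2 ratio of 0.20 in *Aire*+/+ and -0.26 in *Aire*-/-. The difference was not tested.

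The CD8+ libraries, which the comparisons do not use, were flagged where a member was higher under anti-PD1 than under isotype beyond counting error. In *Aire*+/+ tumors the log2 ratios were 0.15 (0.05 to 0.25) for Cd274, at 54.7 against 49.3 CPM, 0.15 (0.06 to 0.23) for Pdcd1lg2, at 77.96 against 70.4 CPM, 0.35 (0.20 to 0.51) for Cd80, at 24.1 against 18.9 CPM, and 0.66 (0.54 to 0.78) for Cd86, at 47.5 against 30.03 CPM. In *Aire*-/- tumors Cd274 gave 0.13 (0.02 to 0.24), at 65.3 against 59.7 CPM. In *Aire*-/- spleens Cd86 gave 0.30 (0.01 to 0.60), at 13.6 against 11.03 CPM, and Icosl 0.69 (0.20 to 1.19), at 5.90 against 3.66 CPM. Other members were lower under anti-PD1 there beyond counting error, with log2 ratios of -0.94 (-1.34 to -0.55) for Icosl in *Aire*-/- tumors, and -1.38 (-2.52 to -0.34) for Cd80, -0.54 (-1.01 to -0.09) for Icosl and -0.30 (-0.56 to -0.04) for Cd86 in *Aire*+/+ spleens. Icosl and Cd86 in the spleen thus had opposite signs in the genotypes. Each rests on 1 library per condition, and none of these differences was tested.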

How the results depend on the processing

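Of 1084 alternative values for 128 ratios, 1064 stayed within the interval of the reported ratio, and 20 moved outside it. The sign differed in 48, all of them for ratios whose reported interval includes 0, and in 0 of those whose interval excludes 0. Another 124 values were left out of these numbers, since the alternative left the same cells and the ratio could not move. In the tumor no gated cell was under 2000 UMIs, so thinning there repeats the mean per cell. No change of gate or cell filter moved a ratio, apart from the last one of this paragraph. The 20 moves came from median centring (7), TMM factors (4), thinning (4), the mean per cell (4) and that last change (1). Examples follow, none of them for TMM factors. For Cd274, mature dendritic cells over macrophages, the mean per cell gave 2.02 and thinning 2.02 in *Aire*+/+ isotype (2.25 reported), and median centring gave 2.21 in *Aire*+/+ anti-PD1 and 1.96 in *Aire*-/- isotype. For Pdcd1lg2, median centring gave 4.38 in *Aire*-/- isotype. Leaving out macrophages with T or NK cell marker UMIs, chosen after seeing the data, gave 1.23 for Pdcd1lg2 under anti-PD1 over isotype in *Aire*-/- (0.73 reported). The causes were not tested.

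The numbers of genes past 2-fold depended on the UMI minimum, and so did their share of all genes. At 1 UMI, 37.3 to 55.2% of the genes past 2-fold over the 20 comparisons had 0 UMIs on a side, and 36.01 to 53.9% were scored higher on the side with 0 UMIs, which the floor of 3 counts produces, so these numbers say nothing of stability or direction. At 10 and 50 UMIs 0 genes were scored so. With at least 1 and at least 50 UMIs they were 3358 and 526 in macrophages for *Aire*-/- over *Aire*+/+ under anti-PD1, 2539 and 237 under isotype, 1848 and 131 for anti-PD1 over isotype in *Aire*+/+, and 2755 and 234 in *Aire*-/-. In that order of comparisons they were 2880 and 124, 3013 and 95, 3145 and 70, and 2916 and 84 in mature dendritic cells, and 2315 and 325, 2029 and 185, 2270 and 76, and 1988 and 96 in tumor monocytes. Splenic monocytes gave 2326 and 75, 1986 and 53, 1884 and 42, and 2744 and 56, and splenic B cells 2014 and 114, 1985 and 71, 1947 and 55, and 1914 and 62. With TMM factors or median centring, 40 of 40 such numbers stayed within 1.5 times the reported count.

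No paired analysis was possible because each condition has 1 library of pooled mice. Intervals leave out variation between mice, and those of levels and ratios also leave out variation between cells. Mature dendritic cells number 35 to 55 per library.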
